A study of Rattus norvegicus with 36 samples.

Results

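The comparison set the 4 rats injected with 760 kBq of 131I against the 4 control rats labelled 0 kBq. These 8 arrays were chosen by their labelled activity, out of 36 arrays in the series, and all 30367 non-control probes on each array were used. All rats were adult male Sprague Dawley rats, and thyroid tissue was taken 24 h after an injection into the tail vein. The irradiated rats received sodium iodide in saline, at an activity with an estimated mean absorbed dose to the thyroid of 0.5 Gy. The controls were mock-treated, after all irradiated groups had been injected in order of activity. The rats were housed 4 to a cage, so activity, place in the injection order and, where groups were caged together, cage cannot be told apart. Each array held the RNA of 1 rat, and the estimated dose is a mean for the gland.

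131I is a beta emitter that the thyroid concentrates, because follicular cells carry the sodium iodide symporter and bind iodide to thyroglobulin. Ionizing radiation breaks DNA and activates the transcription factor p53, which switches on genes of cell cycle arrest (Cdkn1a, Plk2), of apoptosis (Bax, Aen) and of its own feedback (Mdm2, Zmat3). The circadian clock runs in the thyroid as in other tissues. The activators CLOCK and BMAL1 drive the Per and Cry repressors and output factors such as Dbp, so the levels of these transcripts change with the hour at which tissue is taken.

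Promoter sequences are shown for 3 p53 target genes whose transcripts the results turn on. Each line holds the 250 bases before the annotated start in RefSeq's GRCr8 assembly, on the plus strand, in lower case except for the motif. In the first 2, capitals mark a match to the p53 half-site consensus, and in the last they mark the CRE letters TGACGTCA. Both strands were searched, and the CRE letters read the same on both.
Aen, chr1:142224283-142224532: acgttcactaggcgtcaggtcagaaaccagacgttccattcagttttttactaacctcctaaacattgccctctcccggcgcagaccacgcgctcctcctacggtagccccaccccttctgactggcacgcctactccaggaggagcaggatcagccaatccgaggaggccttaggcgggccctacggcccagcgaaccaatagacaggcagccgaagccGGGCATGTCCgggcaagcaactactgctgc
Cdkn1a, chr20:7150682-7150931: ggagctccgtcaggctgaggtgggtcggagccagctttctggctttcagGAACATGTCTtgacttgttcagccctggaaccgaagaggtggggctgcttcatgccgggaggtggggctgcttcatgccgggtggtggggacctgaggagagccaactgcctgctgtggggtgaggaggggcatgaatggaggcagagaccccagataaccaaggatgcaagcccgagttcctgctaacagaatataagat
Plk2, chr2:43702286-43702535: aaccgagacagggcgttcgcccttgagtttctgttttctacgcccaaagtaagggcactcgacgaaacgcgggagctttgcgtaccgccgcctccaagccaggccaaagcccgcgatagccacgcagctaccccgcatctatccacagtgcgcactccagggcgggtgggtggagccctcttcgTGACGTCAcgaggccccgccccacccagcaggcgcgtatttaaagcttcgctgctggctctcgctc
The half-site consensus was found in 6.64% of the 33469 promoters in the table and the CRE letters in 1.59%. Of 30 named genes, 24 had a promoter in the table. The half-site stood in 3 of these, Aen, Cdkn1a and Per3, and the CRE in 2, Plk2 and Pus10. A match is a description of the letters and does not show that a factor binds there.

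The arrays of both groups overlapped in signal over background, with 65.9% to 74.4% of probes well above background in the irradiated rats and 64.2% to 76.8% in the controls. The arrays were spread over 5 slides and 2 scan days. Scan day was not balanced between the groups. Irradiated rats 1, 2 and 4 and control rat 1 were scanned on day 2, and irradiated rat 3 and control rats 2, 3 and 4 on day 1. The slides held 1 irradiated and 1 control rat together in only 2 cases, irradiated rat 1 with control rat 1 and irradiated rat 3 with control rat 2. Levels below are log2 intensities relative to the 75th percentile of the same array, and a difference of 1 is a 2-fold difference.

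The tissue on the arrays differed strongly from rat to rat within both groups. Thyroglobulin (Tg), the protein on which thyroid hormone is made, was at 6.83, -0.77, 7.43 and 7.03 in irradiated rats 1 to 4 and at 6.96, 6.89, 3.18 and 7.37 in control rats 1 to 4. Irradiated rat 2 and control rat 3 were thus low in this transcript. The symporter Slc5a5 was well above background on 3 of 4 arrays in each group. The mean of the 11 genes of thyroid hormone synthesis was -1.17, -4.31, 1.74 and 1.33 in the irradiated rats and 1.36, 0.31, -3.83 and 1.73 in the controls, with irradiated rat 1 between the same 2 low rats and the others. None of the 11 genes passed an unadjusted p of 0.05. In whole tissue, fewer follicular cells and less RNA per cell cannot be told apart.

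Transcripts of neighbouring tissues varied with this. Calcitonin (Calca), the hormone of the thyroid's C cells, was at -3.77 and -7.11 in irradiated rats 1 and 2 and at -2.80 in control rat 3, against 6.27 to 7.70 in the other 5 rats. The same 3 rats carried squamous epithelium transcripts, as in the lining of the oesophagus. The keratin Krt13 was at 6.51 and 6.76 in irradiated rats 1 and 2 and at 5.90 in control rat 3, and at -5.71 to -4.21 elsewhere. All 8 squamous genes with a probe had a ratio above 0 (median 2.79), since 2 irradiated rats and 1 control carried them, and none passed an unadjusted p of 0.05. Without these 3 rats the median of the list was 0.02.

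Skeletal muscle transcripts were high in 7 of the 8 rats. The muscle creatine kinase Ckm was at 7.32, 7.31, -2.93 and 6.78 in the irradiated rats and at 6.61 to 7.57 in the controls, so that irradiated rat 3 stood alone. The 11 fast muscle genes had a median ratio of -2.38, with 0 of 11 above 0 and none past an unadjusted p of 0.05. Lymphoid transcripts stood out in control rat 2, where the T cell receptor subunit Cd3d was at 5.25 against -3.61 to -1.83 in the other 7 rats. Parathyroid hormone (Pth) was at 2.22, -7.05, 6.60 and 5.94 in the irradiated rats and at -6.80, 6.46, -7.81 and 4.04 in the controls. Values with some of these rats left out, or with the means of 4 tissue lists (thyroid hormone synthesis, slow muscle, fast muscle and squamous epithelium) as covariates, are given below where they differ most.

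**Figure D1:**
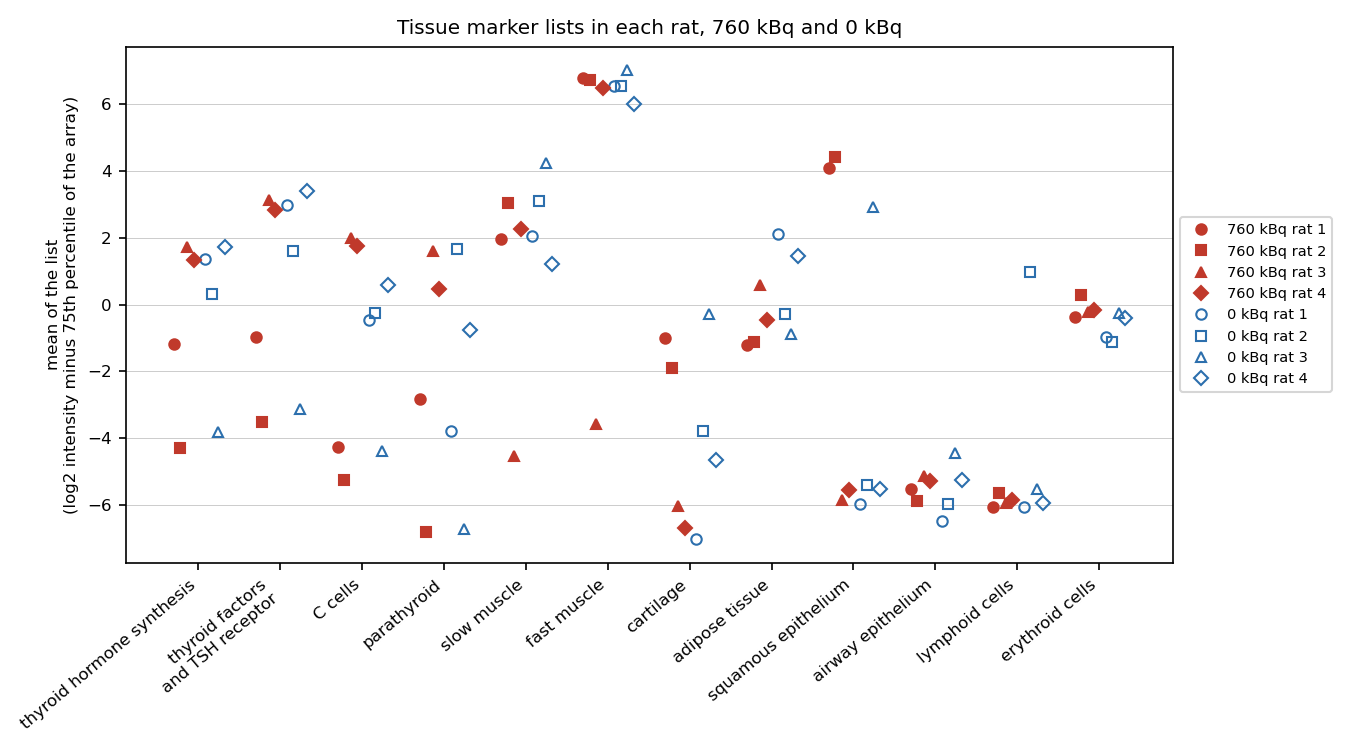
Mean of each of 12 tissue marker lists (horizontal axis) in each rat, as log2 intensity relative to the 75th percentile of the array (vertical axis); filled red symbols are the 4 irradiated rats, open blue symbols the 4 controls, and a symbol's shape gives the rat's number. Irradiated rats 1 and 2 and control rat 3 are high in the squamous list (4.11, 4.42 and 2.92), irradiated rat 3 is low in fast muscle (-3.58), and control rat 2 is high in the lymphoid list (0.99).

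No transcript was regulated at the limits of the study, which ask for a 1.5-fold difference with an adjusted p-value below 0.01 (limma, Benjamini-Hochberg adjustment over all 30367 probes). The lowest adjusted p-value was 1, which is therefore the adjusted p-value of every gene below in this comparison. At an unadjusted p of 0.05, 499 probes (1.64%) passed, of which 454 (1.5%) were higher and 45 (0.148%) lower in the irradiated rats. At an unadjusted p of 0.01 with a fold change of at least 1.5, 69 probes (0.227%) passed, 58 higher (0.191%) and 11 lower (0.0362%). Quantile normalization gave 52 higher and 26 lower, and moved the median log2 ratio of all probes from 0.08 to -0.02. Leaving out the 2 rats low in thyroid transcripts gave 144 higher and 9 lower at the same limits, and leaving out the 3 rats with squamous transcripts gave 153 and 17, with no regulated probe in either case. Within groups, rats typically differed by an SD of 0.67 per probe (the median over probes, log2 scale), and with 4 arrays a group the precision is limited. The study, by contrast, reported a few regulated transcripts at this activity at the same limits, in both directions. It used other software (Nexus Expression). With the matrix that its authors had quantile-normalized, limma also gave 0 regulated probes. The reason for the difference from the study was not tested.

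The 4 irradiated rats lay above all 4 controls for 421 probes (1.39%) and below them for 75 (0.247%), together 1.63% of all probes. Of the 69 probes, 37 showed this separation, and 23 of these had a gene symbol. With the further demand that the probe was well above background on all 4 arrays of the brighter group, 16 genes were higher and 2 lower, and the 10 higher genes with the largest ratios and both lower genes are described below. For each of these probes, the two-sided exact permutation test over the 8 rats gave p = 0.0286, the smallest value that 4 against 4 rats allow. The separation was part of the rule for naming them and is no further evidence. The ratios below are differences between group means on the log2 scale, irradiated minus control, with the SE of the limma fit.

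Among p53 targets, Plk2 and Aen were higher in every irradiated rat than in any control. Plk2, a polo-like kinase induced by DNA damage, was at -1.36, -1.32, -2.22 and -2.33 in the irradiated rats and at -3.75, -4.05, -2.62 and -4.33 in the controls. Its log2 ratio was 1.88 ± 0.66 (SE, n = 4 and 4), a 3.68-fold difference, with an unadjusted limma p of 0.00818. The irradiated rats 1 and 2 were the highest, and control rat 3, which also held squamous transcripts, was the highest control.

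Aen, an exonuclease of p53-dependent apoptosis, was at 1.52, 1.59, 3.0 and 2.64 in the irradiated rats and at 0.86, 1.03, 1.0 and 0.53 in the controls. The log2 ratio was 1.33 ± 0.41 (SE), a 2.52-fold difference (limma, unadjusted p = 0.00276), and a second Aen probe gave 1.40 ± 0.51. Within the irradiated group, Aen was highest in rats 3 and 4 and Plk2 in rats 1 and 2. Without the 3 rats that carried squamous transcripts, the Aen ratio was 2.02 (limma, unadjusted p = 4.93e-04) and the Plk2 ratio 1.77 (unadjusted p = 0.0496). With tissue covariates the Aen ratio was 1.13 (limma, unadjusted p = 0.00256) and the Plk2 ratio 1.46 (unadjusted p = 0.00219).

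Cdkn1a, which encodes the p21 inhibitor of cyclin-dependent kinases, was at 2.78, 3.53, 3.14 and 3.44 in the irradiated rats and at 0.18, 0.76, 3.25 and 1.61 in the controls. The irradiated rats lay close together and the controls were widely spread, with control rat 3 inside the irradiated range. Its log2 ratio was 1.77 ± 0.82 (SE; limma, unadjusted p = 0.0391; exact permutation p = 0.0857), but a second Cdkn1a probe gave only 0.29 ± 0.30. With tissue covariates the ratio of the first was 1.26 (limma, unadjusted p = 0.101), and with scan day as a block 1.54 (unadjusted p = 0.0801). Both Zmat3 probes, for a zinc finger protein of RNA processing under p53 control, had all 4 irradiated rats above all controls, with ratios of 0.85 ± 0.50 and 0.82 ± 0.32. Their unadjusted limma p-values were 0.101 and 0.0157, and the second probe was well above background on 3 of 4 control arrays.

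Mdm2, the ubiquitin ligase that removes p53, was at -0.07, -0.06, 0.30 and 0.74 in the irradiated rats and at -0.41, -0.07, 0.38 and -0.47 in the controls. The groups overlapped, with a ratio of 0.37 ± 0.24 (limma, unadjusted p = 0.132), while a second probe gave 0.52 ± 0.21 (unadjusted p = 0.0196). Bax, which permeabilizes mitochondria in apoptosis, had a ratio of 0.50 ± 0.29 (limma, unadjusted p = 0.100), with 3 of 4 irradiated rats above all controls.

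Of the 10 arrest and feedback genes with a probe (11 listed), 2 were higher and 0 lower at an unadjusted p of 0.05, against 1.5% and 0.148% of all probes. The median log2 ratio was 0.34 and 7 of 10 ratios were above 0, against 0.08 and 60.1% over all probes. Of the 8 apoptosis genes with a probe (10 listed), 1 was higher, 0 were lower, the median was 0.38 and 7 of 8 ratios were above 0. All 10 arrest genes and 7 of the 8 apoptosis genes were well above background on all 8 arrays, and Pmaip1 on none, though its ratio (0.16) counts as above 0. Without the 3 rats with squamous transcripts, 3 of 10 and 2 of 8 were higher, with medians of 0.73 and 0.65. In that setting 659 of all 30367 probes were higher, against 454 in the main fit. With tissue covariates, 1 of 10 and 1 of 8 were higher, with medians of 0.40 and 0.39, beside 655 of all 30367 probes. Btg2 (ratio -0.78) and Fas (ratio -0.71) had the lowest ratios of their lists. The highest apoptosis ratio was that of Perp, 1.36 ± 2.28 (limma, unadjusted p = 0.555). Perp was at 5.56 and 5.90 in irradiated rats 1 and 2 and at 4.38 in control rat 3, the rats with squamous transcripts. It was at 2.0 to 3.38 in the others. Of 14 genes of DNA damage signalling and repair with a probe, 0 passed in either direction and the median was 0.03.

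Abcb1b, a P-glycoprotein that pumps drugs out of cells, was the only one of 7 drug transporters and carboxylesterases past an unadjusted p of 0.05. It was at -1.83, -1.98, -1.80 and -2.14 in the irradiated rats and at -4.01, -2.83, -2.28 and -4.30 in the controls. All irradiated rats were above all controls, and they lay close together (SD 0.16) while the controls were spread (SD 0.96). The log2 ratio was 1.42 ± 0.46 (SE; limma, unadjusted p = 0.00428), and the second probe gave 2.11 ± 0.92. Nqo1, a quinone reductase of the oxidative stress response, was also higher in all 4 irradiated rats than in all controls, at 0.01 to 0.78 against -1.89 to -0.12, but with a ratio of 1.39 ± 0.87 (limma, unadjusted p = 0.119). Of the 14 redox defence genes, 0 passed an unadjusted p of 0.05, and 11 had ratios above 0 (median 0.18).

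**Figure D2:**
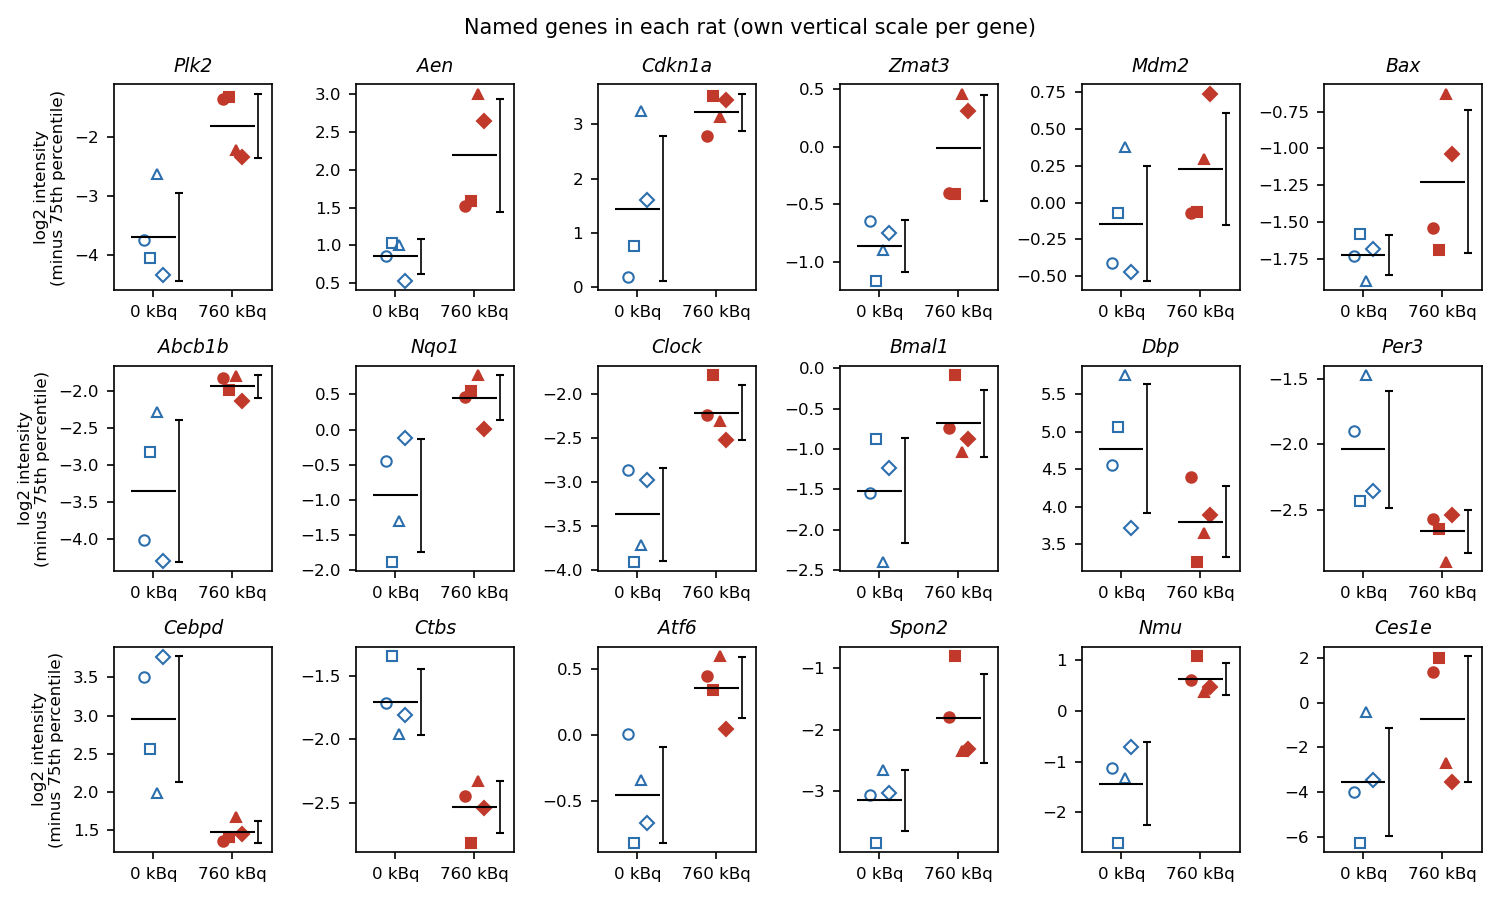
Levels of 18 genes (log2 intensity minus that of the array's 75th percentile, own scale per panel) in the 4 controls (open blue) and the 4 irradiated rats (filled red); shapes give the rat's number, horizontal lines the means and bars beside them the SD. Plk2, Aen, Zmat3, Abcb1b, Nqo1, Clock, Atf6, Spon2 and Nmu lie above all controls in all 4 irradiated rats and Per3, Cebpd and Ctbs below, while Cdkn1a, Mdm2, Bax, Bmal1, Dbp and Ces1e overlap.

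Among clock genes, both main activators were past the unadjusted limit, each with a higher mean in the irradiated rats, by the brightest probe of each. Clock itself was at -2.24, -1.78, -2.31 and -2.52 in the irradiated rats and at -2.86, -3.91, -3.72 and -2.98 in the controls. Every irradiated rat was above every control, with a log2 ratio of 1.16 ± 0.36 (SE; limma, unadjusted p = 0.00328) and 0.89 ± 0.40 for a second probe. Bmal1, the partner of CLOCK, was at -0.74, -0.08, -1.03 and -0.88 against -1.54, -0.88, -2.40 and -1.24. Its ratio was 0.83 ± 0.31 (limma, unadjusted p = 0.0130), the groups overlapped through control rat 2, and a second probe gave 0.55 ± 0.36 (unadjusted p = 0.139). Npas2, a relative of CLOCK, had a ratio of 0.44 ± 0.61 and a second probe gave -0.10 ± 0.36. By the brightest probe of each gene, 2 of the 3 activators with a probe (5 listed) passed the unadjusted limit as higher, with a median of 0.83, against 1.5% of all probes. Without the 2 rats low in thyroid transcripts the Bmal1 ratio was 0.33 (limma, unadjusted p = 0.308) and that of Clock 0.90 (unadjusted p = 0.0422), and without the 3 rats with squamous transcripts they were 0.26 (unadjusted p = 0.478) and 0.84 (unadjusted p = 0.0919).

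Most genes of the other clock lists, repressors and PAR bZIP factors, had ratios below 0. Dbp, an output factor of the PAR bZIP family, was at 4.40, 3.26, 3.65 and 3.89 in the irradiated rats and at 4.56, 5.06, 5.76 and 3.71 in the controls. The groups overlapped, with ratios of -0.97 ± 0.49, -0.90 ± 0.44 and -0.92 ± 0.45 for its 3 probes and unadjusted limma p-values of 0.0558, 0.0471 and 0.0495. Tef, of the same family, had a ratio of -0.52 ± 0.49, and Nfil3, which represses the same targets, one of -0.38 ± 0.70. The period gene Per3 was at -2.57, -2.65, -2.90 and -2.54 in the irradiated rats and at -1.90, -2.43, -1.47 and -2.36 in the controls, so that all 4 irradiated rats lay below, with a ratio of -0.62 ± 0.40 (limma, unadjusted p = 0.132). Per2 had a ratio of -0.94 ± 0.49 (limma, unadjusted p = 0.0659) and Cry1 one of 0.23 ± 0.39. The ratios of Nr1d1 and Nr1d2 were 0.17 ± 0.93 and -0.04 ± 0.49. Of the 9 repressors with a probe (10 listed), 0 passed in either direction, 2 had ratios above 0 and the median was -0.22. Without the 2 rats low in thyroid transcripts the Dbp ratio was -0.46 (limma, unadjusted p = 0.407) and the repressor median -0.08. Without the 3 rats with squamous transcripts the Per2 ratio was -0.18 (limma, unadjusted p = 0.767).

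Cebpd had the lowest unadjusted p-value of the named genes. This C/EBP transcription factor of the acute phase and stress response was at 1.36, 1.41, 1.68 and 1.45 in the irradiated rats and at 3.50, 2.57, 1.99 and 3.77 in the controls. The irradiated rats lay close together (SD 0.14) and below every control (SD 0.83). The log2 ratio was -1.48 ± 0.35 (SE), a 2.79-fold lower level, with an unadjusted limma p of 2.28e-04. It was -1.78 without the rats low in thyroid transcripts and -1.72 without those with squamous transcripts, but -1.19 with tissue covariates (limma, unadjusted p = 6.72e-04). Between the rats that shared a slide, Cebpd differed by -2.14 and -0.88. The 8 glucocorticoid-responsive genes, another stress-linked list, had a median of -0.35 with 0 of 8 above 0, and 0 passed an unadjusted p of 0.05. That median was -0.15 with tissue covariates and -0.45 without the 3 rats with squamous transcripts. The lowest member, Mt1 (ratio -0.9), was at 1.19 to 1.52 in these 3 rats and at 3.76 to 4.96 in the others. The 8 adipose tissue genes with a probe also had 0 of 8 above 0, with a median of -1.03, and 0 passed an unadjusted p of 0.05. Their mean was -1.21, -1.13, 0.59 and -0.47 in irradiated rats 1 to 4 and 2.13, -0.29, -0.87 and 1.47 in control rats 1 to 4. Adipose tissue was not among the lists used as covariates, and whether its share accounts for the Cebpd ratio was not tested.

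Ctbs, a lysosomal chitobiase that trims glycans from degraded glycoproteins, was the other gene with a symbol that met the rule as lower. It was at -2.45, -2.82, -2.33 and -2.54 in the irradiated rats and at -1.71, -1.34, -1.96 and -1.81 in the controls. The ratio was -0.83 ± 0.29 (SE; limma, unadjusted p = 0.00803), and -0.68 with scan day as a block (unadjusted p = 0.0254). Its mean at 760 kBq, -2.53, was next to that at 340 kBq, -2.51.

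Atf6, Spon2 and Pus10 were among the higher genes. Atf6, a membrane-bound transcription factor of the endoplasmic reticulum stress response, was at 0.45, 0.34, 0.60 and 0.05 against 0.01, -0.81, -0.34 and -0.66. Its ratio was 0.81 ± 0.22 (limma, unadjusted p = 9.21e-04), and a second probe gave 0.77 ± 0.29. The 12 endoplasmic reticulum stress genes with a probe had a median of 0.09, near the 0.08 of all probes, and 0 passed in either direction. Spon2, a secreted matrix protein, was at -1.79, -0.80, -2.34 and -2.32 against -3.06, -3.84, -2.66 and -3.03, with a ratio of 1.33 ± 0.47 (limma, unadjusted p = 0.00810). Pus10, a pseudouridine synthase, had a ratio of 0.91 ± 0.33 (limma, unadjusted p = 0.00903) and was well above background on 3 of 4 control arrays. Without the 2 rats low in thyroid transcripts the Pus10 ratio was 0.51 (limma, unadjusted p = 0.160). Without the 3 rats with squamous transcripts it was 0.45 (limma, unadjusted p = 0.279), and that of Spon2 was 0.98 (unadjusted p = 0.109). Against the mean of the 7 other irradiated groups, Atf6, Spon2 and Pus10 did not pass 0.05 (limma, unadjusted p = 0.105, 0.309 and 0.115). Spon2 means were -2.22 to -1.95 in the other groups from 9 to 1300 kBq, beside -1.81 at 760 kBq. They were -3.03 at 4700 kBq and -3.14 in the controls. Pus10 was higher at 9 kBq (-4.35) than at 760 kBq (-4.66).

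For 3 genes the probe that met the rule was not the brightest probe of the gene, and the probes disagreed. Erlin1, a protein of membrane rafts in the endoplasmic reticulum, had a ratio of 1.32 ± 0.45 on the first and 0.35 ± 0.37 on the brightest. Exoc6b, a subunit of the exocyst that tethers vesicles, had 1.08 ± 0.37 and 0.24 ± 0.36. Tbc1d14, a regulator of autophagy, had 0.87 ± 0.29 and 0.31 ± 0.17, although its brightest probe also had all 4 irradiated rats above all controls.

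Another 4 genes and 1 probe had been singled out at this activity in the study on the same arrays, so their values are no independent evidence. Neuromedin U (Nmu), a peptide hormone, was at 0.62, 1.09, 0.37 and 0.48 in the irradiated rats and at -1.12, -2.61, -1.32 and -0.71 in the controls. All 4 irradiated rats were above all controls, and the ratio of 2.08 ± 1.60 had an unadjusted limma p of 0.203, where the error is pooled over 9 groups and the SD within the others reached 3.27. The slow muscle genes Myl2 and Myh7, a myosin light and heavy chain, had ratios of -3.05 ± 2.08 and -3.37 ± 2.43. Myl2 was at 0.97, 1.29, -8.26 and 2.81 in the irradiated rats and Myh7 at 0.27, 2.90, -6.48 and 4.64, so the lowest value of both was in irradiated rat 3, which was low in fast muscle transcripts too, although 10 of the 11 fast muscle genes were well above background there. With the levels of 4 tissue lists as covariates their ratios were 0.35 and 0.48, and that of Nmu was 0.79 (limma, unadjusted p = 0.336).

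The carboxylesterase Ces1e, a drug- and lipid-metabolizing enzyme, was at 1.38, 1.97, -2.70 and -3.55 in the irradiated rats and at -3.99, -6.26, -0.43 and -3.47 in the controls. The 3 highest values were those of the 3 rats with squamous transcripts, and its ratio of 2.81 ± 2.24 was 1.45 without them. Ces2c, of the same family, was highest in the same 3 rats, at -1.12, -0.33 and -2.10, and at -8.54 to -5.95 in the others. Probe A_64_P126595 was at 2.70, 1.92, 3.19 and 4.26 against 1.65, -2.28, 2.99 and 2.76, with a ratio of 1.74 ± 0.75 (limma, unadjusted p = 0.0272). The groups overlapped, and the ratio was 0.55 without control rat 2.

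The lists of the remaining processes held no member past an unadjusted p of 0.05. They covered the cell cycle (median 0.30, 12 genes with a probe), immediate early genes (0.02, 9 genes), chaperones (0.09, 6 genes), interferon-stimulated genes (-0.22, 13 genes) and MHC class II (-0.25, 6 genes). Cell cycle genes were high in irradiated rats 1 and 2 and in control rat 2, where the cyclin-dependent kinase Cdk1 was at 0.97, 1.74 and 1.93, against -2.38 to -1.10 in the other 5 rats. In the slow muscle list, Pln, the phospholamban of the muscle calcium pump, was the only member past that limit (ratio 0.81 ± 0.39; limma, unadjusted p = 0.0484), while the list's median was -2.09.

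**Figure D3:**
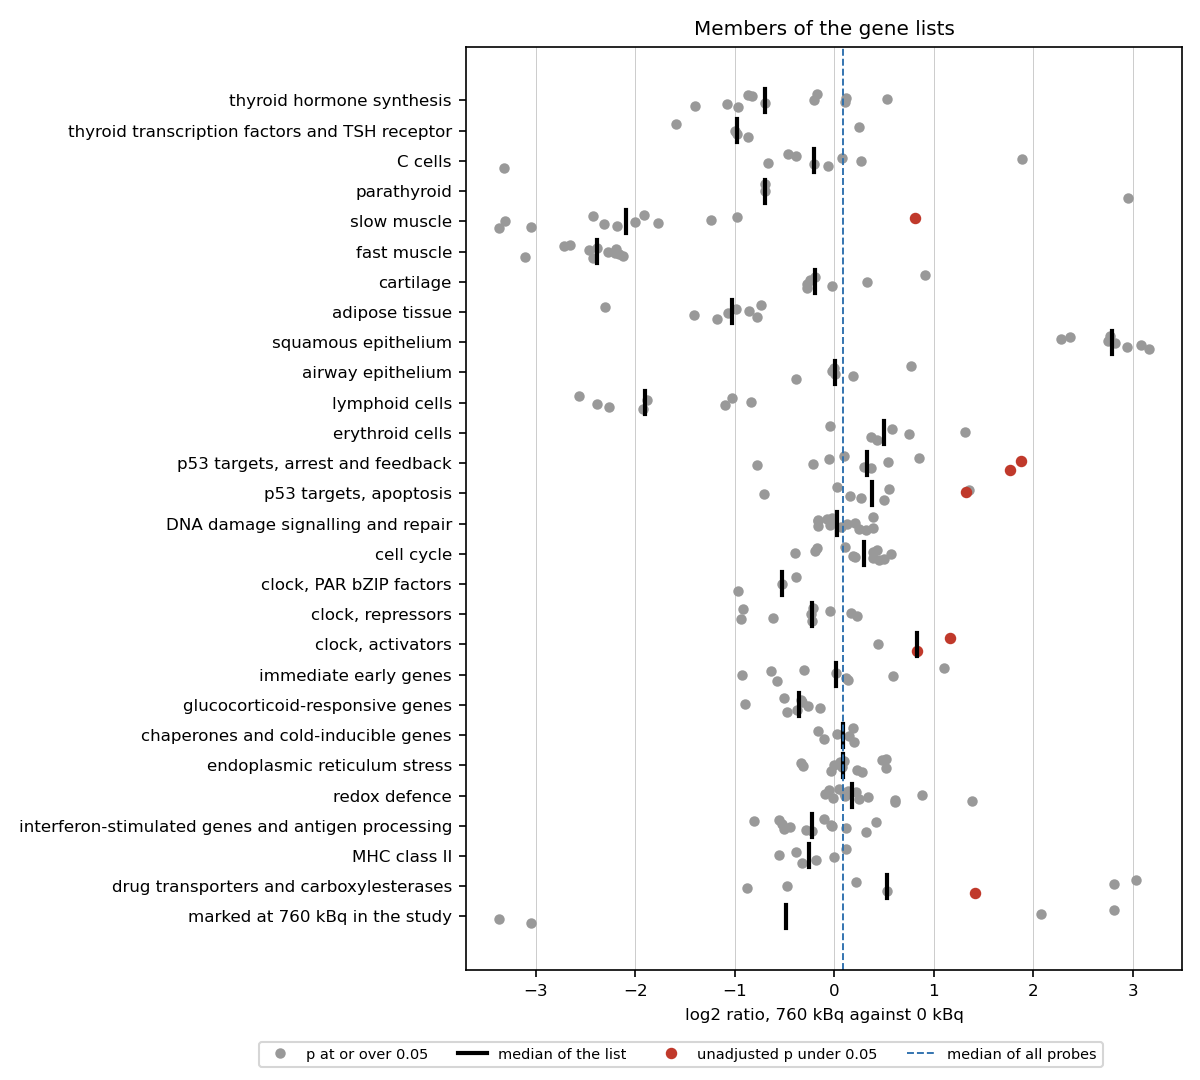
Log2 ratios of 760 kBq against 0 kBq (horizontal axis) for each gene with a probe in 28 lists (vertical axis); each point is 1 gene, red where the unadjusted limma p was under 0.05, the black bar is the list's median and the dashed line the median of all 30367 probes (0.08). Red points lie in both p53 lists, the clock activators, the drug transporters and, as 1 gene, slow muscle.

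Compared with its neighbours in activity, the 760 kBq group had no regulated transcripts either. Against 340 kBq, 0 probes were regulated and 2011 (6.62%) passed an unadjusted p of 0.05, with a lowest adjusted p-value of 0.0320 (limma). At the unadjusted limit 148 were higher and 1863 lower at 760 kBq, but the split was 801 and 950 with quantile normalization. Without irradiated rat 3 the count of 2011 was 1044 and the lowest adjusted p-value 0.250. Against 1300 kBq, 0 were regulated and 1362 (4.49%) passed, and against the mean of the 7 other irradiated groups 0 were regulated and 330 (1.09%) passed, or 593 without irradiated rat 4.

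Of the 34 named genes and probes tested, 5 passed an unadjusted p of 0.05 against the other irradiated rats, beside 1.09% of all probes. Of the 5, 4 were clock genes and the other was Nmu, which the study had singled out on these arrays. The study had also singled out Dbp in this series, for its change with absorbed dose. The lists were chosen with earlier results of these data known, so this count is no independent evidence. Cry1 was at a mean of -1.53 at 760 kBq, lower than the mean of the 7 other irradiated groups by -0.91 ± 0.29 (limma, unadjusted p = 0.00419, adjusted p = 1). Nfil3 differed from it by -1.44 ± 0.53 (unadjusted p = 0.0105), Bmal1 by -0.55 ± 0.24 (unadjusted p = 0.0286) and Dbp by 0.79 ± 0.37 (unadjusted p = 0.0406), each with an adjusted limma p of 1. Group means of Bmal1 were 0.46, 0.42, 0.27, 0.17 and 0.25 at 9, 88, 170, 260 and 340 kBq, then -0.68 at 760 kBq, -0.69 at 1300 kBq and -1.82 at 4700 kBq, beside -1.51 in the controls. Those of Dbp were 2.08, 2.05, 2.14, 2.42 and 3.01 up to 340 kBq, then 3.80, 4.28 and 5.10, beside 4.77 in the controls. For Dbp the 760 kBq mean thus lay between those of the groups injected earlier and those injected later, the controls included, and for Bmal1 it was next to that at 1300 kBq. Group means of Cry1 were -0.51 to -0.11 from 9 to 340 kBq, then -1.53, -1.12 and -1.68, beside -1.76 in the controls. Those of Nfil3 were -1.54 to -0.84 up to 340 kBq, then -2.88, -1.8 and -2.59, beside -2.49 in the controls. Both were thus lower from 760 kBq on and in the controls than in the groups injected earlier. The difference at 760 kBq from 1300 kBq was -0.41 ± 0.39 for Cry1 and -1.07 ± 0.70 for Nfil3 (limma, unadjusted p = 0.300 and 0.134). The Nfil3 mean at 760 kBq was the lowest of the 9 groups. Clock, at a mean of -2.21, did not pass 0.05 against the other irradiated rats (limma, unadjusted p = 0.232). Its means were -2.45 to -2.24 from 9 to 340 kBq, then -3.06 and -2.98 at 1300 and 4700 kBq, beside -3.37 in the controls. Activity and place in the injection order cannot be told apart here.

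The p53 targets differed in how the 760 kBq mean ranked among the groups. Aen was at 0.85 in the controls, at 1.33 to 1.74 in the groups from 9 to 340 kBq, at 2.19 at 760 kBq, and at 2.1 and 2.78 at 1300 and 4700 kBq. Its level at 760 kBq differed from that at 340 kBq by 0.86 ± 0.41 (limma, unadjusted p = 0.0435, adjusted p = 0.647). Mdm2 was lower at 760 than at 1300 kBq by -0.60 ± 0.24 (limma, unadjusted p = 0.0169, adjusted p = 0.834) and its difference from 340 kBq was within the error (-0.05 ± 0.24). Plk2 had its highest group mean at 760 kBq, -1.81, next to -1.97 at 4700 kBq, a difference smaller than the SD of 0.54 among the rats of the group. Abcb1b, at -1.93, lay between -2.32 at 340 kBq and -1.76 and -1.21 at the higher activities. Plk2, Aen and Abcb1b had been named for their values in the 760 kBq rats. Their ranks and the p-value of Aen against 340 kBq are thus no independent evidence.

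Cebpd had its lowest group mean at 760 kBq, 1.47, with the other irradiated groups at 1.72 to 2.32. The difference from their mean was -0.53 ± 0.27 (limma, unadjusted p = 0.0553, adjusted p = 1). Nmu had its highest group mean at 760 kBq, 0.64 ± 0.32 (SD, n = 4), against -3.73 to -0.82 in the other 8 groups. It was higher than at 1300 kBq by 4.37 ± 1.60 (limma, unadjusted p = 0.0105, adjusted p = 0.834) and than the mean of the 7 other irradiated groups by 2.52 ± 1.21 (limma, unadjusted p = 0.0461, adjusted p = 1). Cebpd and Nmu had both been named for their values in the 760 kBq rats, so these ranks and p-values are no independent evidence.

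**Figure D4:**
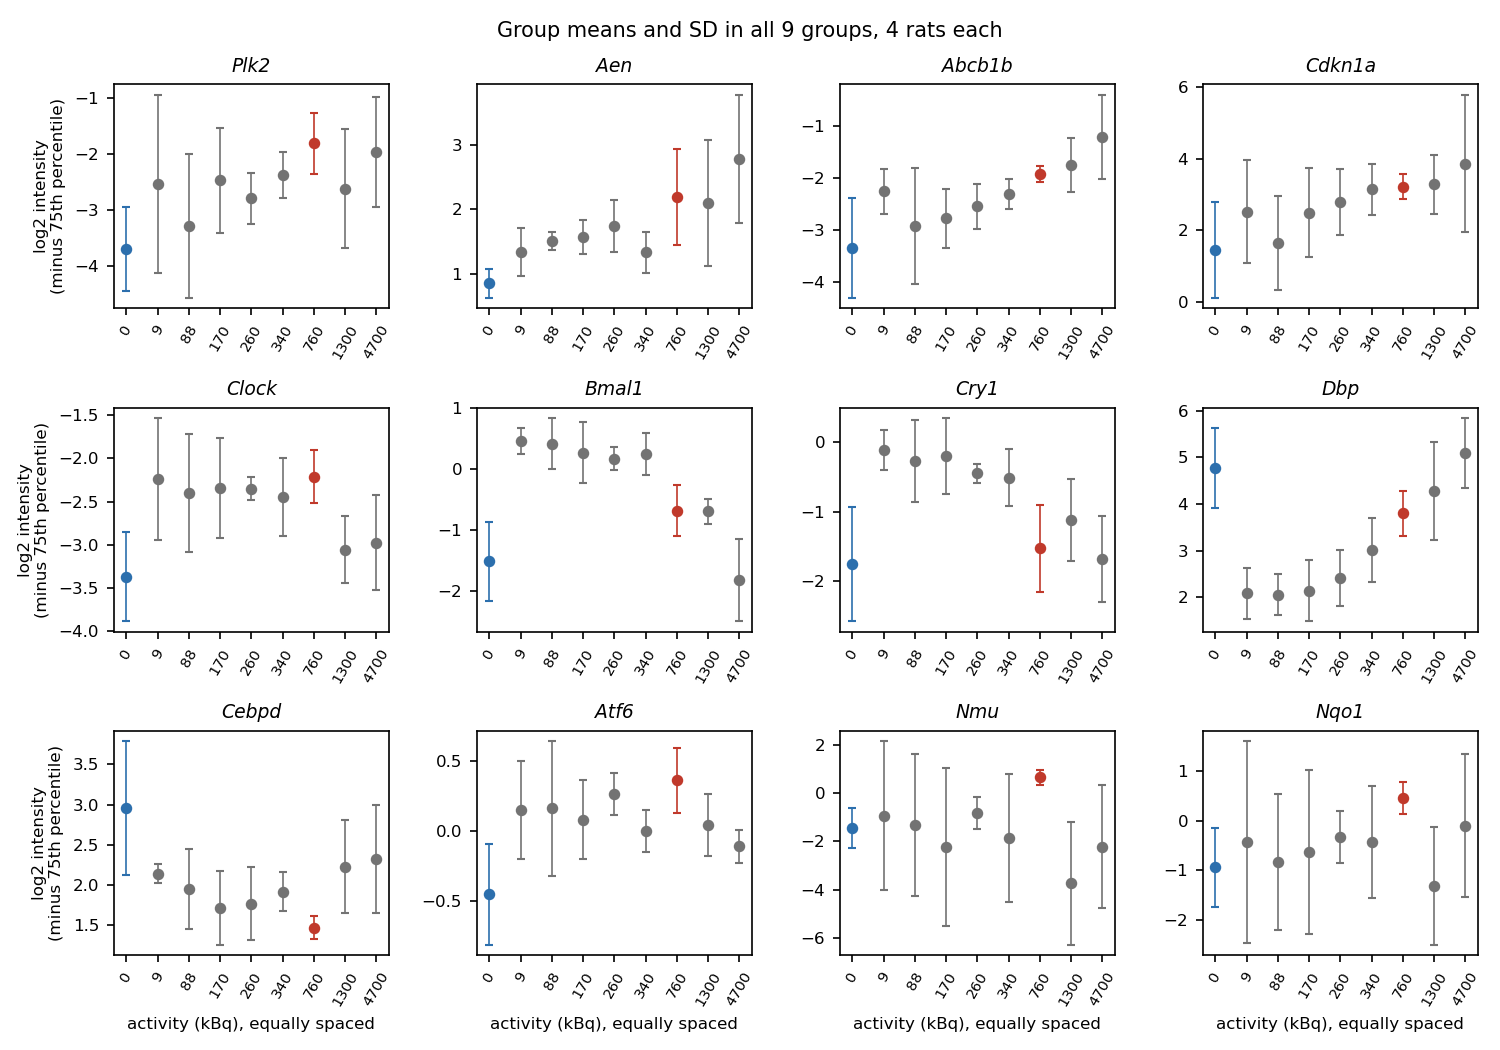
Mean and SD of 12 genes (log2 intensity minus that of the array's 75th percentile, own scale per panel) in the 9 groups of 4 rats, ordered and equally spaced by activity in kBq; blue is 0 kBq, red 760 kBq, grey the other irradiated groups. At 760 kBq Bmal1 (-0.68) and Dbp (3.80) lie between the lower activities and the controls, Cebpd (1.47) is at its lowest and Nmu (0.64) at its highest.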

How the data were processed

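Thyroid RNA of 36 rats, 1 array each, was hybridised to 1-colour (Cy3) Agilent rat arrays. The deposited scanner files hold spot intensities that Agilent Feature Extraction had background-corrected. The deposited matrix holds intensities that the authors had quantile-normalized, on a linear scale, and it was used as an alternative only. Nexus Expression (study's methods) and Partek (submitters' processing notes) are named as the authors' software. The array design names build rn4, and RefSeq sequences are from GRCr8.

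Control and outlier spots were left out, log2 intensities were centred on each array's 75th percentile and spots of a probe were averaged. Groups came from the labelled activity. Of 30367 probes, 17998 had a gene symbol through their accession in the RefSeq table. limma 3.58.1 (R 4.3.3) was fitted to all 36 arrays with 1 mean per group and Benjamini-Hochberg adjustment over all probes. Regulated meant a 1.5-fold difference or more with an adjusted p below 0.01. Contrasts were 760 kBq against 0 kBq, 340 kBq, 1300 kBq and the mean of the 7 other irradiated groups. Exact permutation tests used all 70 splits of the 8 rats. The probe with the highest mean over all arrays stood for a gene. The fit was tested on simulated data.

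Genes were named where they were members of 1 of 28 lists and passed an unadjusted p of 0.05 or defined the list, where they were among the 10 higher or 10 lower with the largest ratio by the rule given in the text, or where the study had marked them in this group. Clock, p53 and redox genes that did not pass are given with their values. Cdk1, Btg2, Fas, Perp, Mt1 and Ces2c were named after their values were seen. Members and lists were chosen with earlier results of these data known. Alternatives covered scaling, background, the deposited matrix, dim probes, outlier spots, slide, scan day, animal number, the arrays in the fit, the variance model, array weights, tissue covariates, thresholds and single rats left out. Leaving out 2 or 3 rats by their tissue transcripts was chosen after seeing the data. Each array is 1 animal by its label, and the labels do not give the cage.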

Additional observations from a re-analysis of the deposited data

Results flagged for a closer look

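In 8 of 92 sets of 4 rats, 1 rat lay far from the other 3 by Dixon's test, which chance gives in about 1 of 20 sets. Irradiated rat 3 was low in the slow muscle list (mean -4.54), the fast muscle list (mean -3.58) and Myl2 (-8.26). Control rat 3 was high in the squamous epithelium list (mean 2.92), and control rat 2 in the lymphoid list (mean 0.99). Control rat 4 was low in Myl2 (0.32). Irradiated rat 1 was low in the brightest Tbc1d14 probe (0.39), where all 4 irradiated rats lay close together (SD 0.03), and control rat 1 was high in Nfil3 (-1.97).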

How the results depend on the processing

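In 23 other settings none of the 34 named genes and probes reached the limits for regulated transcripts, and 27 kept the sign of their ratio in all of them. The sign changed for Erlin1 (-0.02), Exoc6b (-0.03), Nfil3 (0.34), Myl2 (0.35) and Myh7 (0.48) with tissue covariates, for Exoc6b (-0.13) and Cry1 (-0.07) without the 3 rats with squamous transcripts, for Npas2 (-0.17) with array weights (a fit that gave a convergence warning, as for all counts with array weights here), for Nfil3 without irradiated rat 3 (0.15, with a range of -0.71 to 0.15 over single rats left out) and for Cry1 without control rat 4 (-0.04, range -0.04 to 0.46). The number of regulated probes was 0 to 1 with single rats left out, the 1 being probe A_64_P076200 without control rat 1. At an unadjusted p of 0.05 the count of 499 became 294 with a filter on dim probes, 5940 with array weights, 768 with tissue covariates, 803 without the 2 rats low in thyroid transcripts, 755 without the 3 with squamous transcripts and 354 to 1142 with single rats left out (1142 without control rat 3). With an unadjusted p of 0.01 and a fold change of 1.5 the count of 69 became 38 with normexp (run on median spot signals), 35 with the filter, 44 with scan day as a block, 1792 with array weights, 153 and 170 without those 2 and 3 rats and 49 to 122 with single rats left out (122 without control rat 3). Its split of 58 higher and 11 lower was 39 and 15 with median centring, 56 and 28 with the deposited matrix and 32 and 12 with scan day as a block. At an unadjusted p of 0.05 the split of 454 and 45 was 310 and 158 with quantile normalization and 276 and 83 with scan day as a block. In the scan day setting Plk2 (limma, unadjusted p = 0.0199), Spon2 (0.0153), Pus10 (0.0140) and Ctbs (0.0254) were no longer under 0.01. Abcb1b (0.00652), Clock (0.00875), Cebpd (3.51e-04) and Atf6 (0.00143) stayed under it. Against 340 kBq, 2 probes passed an adjusted p of 0.05, and the 2011 past an unadjusted p of 0.05 became 558 with the filter, 1256 with tissue covariates and 4321 without the 3 rats with squamous transcripts. Against the 7 other irradiated groups, 1 probe was regulated with the deposited matrix and 2 with array weights. Fitted to the 8 arrays alone, unadjusted limma p-values fell for Nmu (9.66e-04 from 0.203), Nqo1 (0.00919 from 0.119) and Zmat3 (0.0162 from 0.101), among others. They rose for others, such as Cebpd (0.00578 from 2.28e-04), Abcb1b (0.0132 from 0.00428) and Atf6 (0.0133 from 9.21e-04), and 0 probes were regulated. The causes were not tested. Animal numbers did not pair the rats (correlations of deviations between -0.686 and 0.455), and with the number as a replicate block 0 probes were regulated, 498 and 67 passed the unadjusted limits, and no call of a regulated probe changed. Of the probes, 4712 were well above background on none of the 8 arrays, and for these no difference could be measured.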

Other observations

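Several of the largest differences at an unadjusted p of 0.01 were in genes detected in 1 group alone. Wnt7b, a secreted Wnt ligand, was well above background in 3 of 4 irradiated rats and 0 of 4 controls, at least 3.04-fold higher (limma, unadjusted p = 0.00785, adjusted p = 1; exact permutation p = 0.0857). It was at -3.80 and -3.52 in irradiated rats 1 and 2, which carried squamous transcripts, and at -6.39 and -6.84 in rats 3 and 4, below control rat 3 (-6.22). The sodium channel gene Scn9a was the reverse, well above background in 0 of 4 irradiated rats and 3 of 4 controls, at least 3.34-fold lower (limma, unadjusted p = 0.00476, adjusted p = 1), and Tectb, a protein of the inner ear's tectorial membrane, was at least 2.95-fold lower with the same counts of arrays (limma, unadjusted p = 3.77e-04, adjusted p = 1). These bounds set the mean of the brighter group against the lowest signal detected on the arrays of the other, or the probe's own signal where higher.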
